A study of Homo sapiens with 6 samples.

Results

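The Notch receptors NOTCH1, NOTCH2, NOTCH3 and NOTCH4, the ligands DLL4, JAG1 and JAG2 and the target genes HES1, HEY1 and HEY2 were followed in EA.hy926 cells at normal and low oxygen. These 10 genes are a fixed list, matched by Ensembl identifier and symbol, and all 10 were found among the 22153 genes of the table. EA.hy926, an established human line, is a hybrid of a vein endothelial cell and a lung carcinoma cell, so as a model of endothelium it has an epithelial parent. Polyadenylated RNA was sequenced from 3 libraries of cells at 20% oxygen (normoxia) and 3 libraries of cells held for 8 h at 1% oxygen (hypoxia), grown to near confluence in the same high-glucose medium with serum. The line, with no added genetic change named in the labels, was the same in both groups. The libraries held 17226736 to 18652704 reads assigned to genes.

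Notch is a signalling pathway between touching cells. A ligand of the Delta-like or Jagged family on one cell pulls on a receptor on its neighbour, proteases release the receptor's intracellular part, and this fragment joins the DNA-binding protein RBPJ to switch on genes such as HES1, HEY1 and HEY2, which encode transcriptional repressors. In endothelium the pathway sets the choice between tip and stalk cells in a growing vessel and helps to specify arteries.

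The labels call the cells endothelial, and 8 of 10 endothelial markers were above the filter on low values described below, while EMCN and CLDN5 had at most 5 reads in any library. Of 8 epithelial markers 3 were above it, KRT8, KRT18 and MUC1. Of 9 fibroblast and mural markers 3 passed, and of 6 leukocyte markers 1. Of 8 hypoxia check genes 5 passed the limma test, all higher in hypoxia, beside 0.0977% of all genes tested. BNIP3, a mitophagy receptor and known hypoxia target, had a log2 difference of 3.47 (SE 0.21, adjusted p = 0.00207 by limma). HIF1A, which encodes an oxygen-regulated subunit of the hypoxia-inducible factor, went the other way without passing the limma test, at -1.67 (adjusted p = 0.998 by limma and 0.0276 by DESeq2), with groups that did not overlap. VEGFA and EPAS1 did not pass by limma either. By DESeq2, 7 of the 8 check genes passed, beside 0.488% of all genes tested.

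EA.hy926 cells expressed 2 of the 4 receptors, 2 of the 3 ligands and 2 of the 3 targets above the filter, and none of these 6 genes changed in hypoxia by the test. The receptor NOTCH1 and the target HES1 had the highest levels, DLL4 had the highest group difference, and HEY2 and NOTCH3 had at most 5 reads in any library. Levels are given on an FPKM scale, which is the deposited size-factor-scaled read number scaled for exon length and for the mean library size, so that genes of different length can be compared. A gene entered the test when it reached 1 on this scale in at least 3 libraries, which 10237 genes did. Of the 6 members tested, 0 had an adjusted p below 0.05 by limma, beside 0.0977% of all genes tested (10 genes, all higher in hypoxia). The count of members was also 0 by edgeR, beside 0.0977% of all genes, 0 by DESeq2, beside 0.488%, and 0 at an unadjusted limma p below 0.05, beside 2.69%. The groups overlapped for all 6, while 7.48% of all genes tested did not overlap. The median log2 difference of the 6 was 0.18, beside 0.003 for all genes tested. Of the 6, 5 were positive and 1 negative, beside 5179 positive among all 10237 genes tested. The signs of NOTCH1, JAG1 and HEY1 changed in some settings. The number of libraries limits what could be seen here, and a missed threshold does not show that the members stayed the same.

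**Figure D1:**
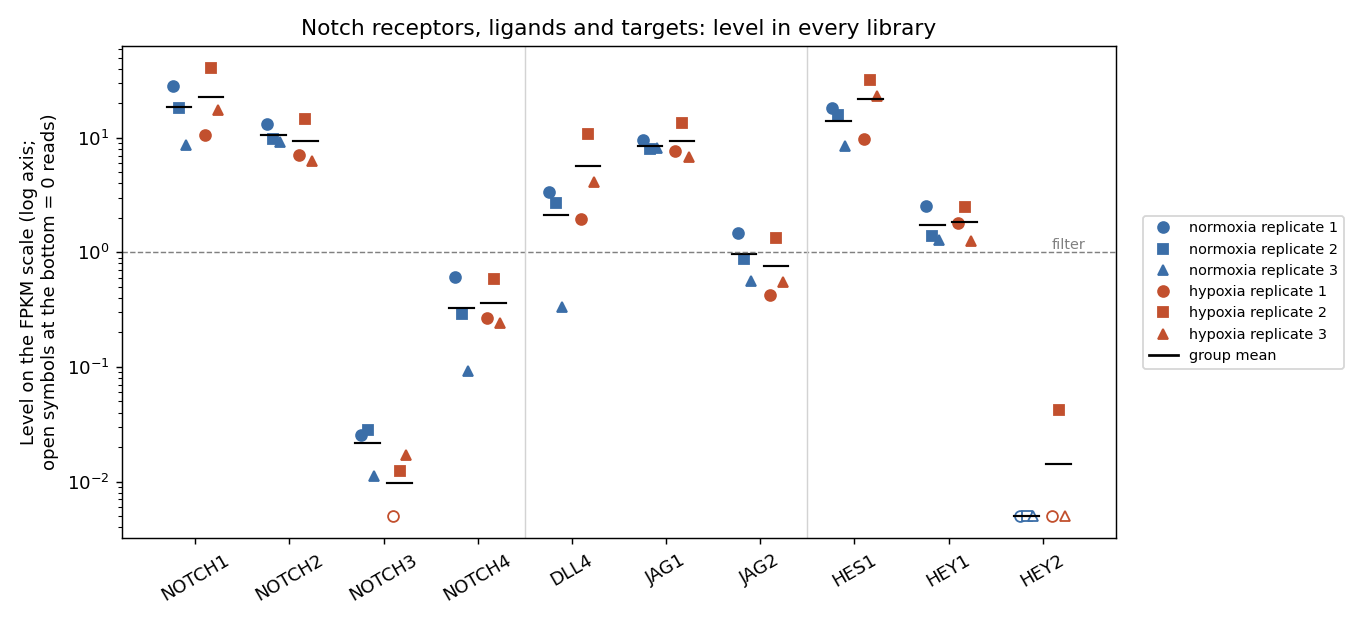
Level of each of the 10 Notch genes on the FPKM scale (log axis) in every library, with normoxia in blue, hypoxia in red, 1 symbol shape per replicate number and a black line at the group mean. NOTCH1, HES1, NOTCH2 and JAG1 lie well above the dashed filter line at 1, NOTCH4 below it in every library, and open symbols mark libraries with 0 reads of HEY2 or NOTCH3.

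Ranked by mean level per length in normoxia, the order was NOTCH1 at 18.4 ± 9.90 (SD, n = 3 for all means), HES1 at 14.2 ± 4.99, NOTCH2 at 10.6 ± 2.17, JAG1 at 8.54 ± 0.913, DLL4 at 2.14 ± 1.60, HEY1 at 1.73 ± 0.699, JAG2 at 0.968 ± 0.465 and NOTCH4 at 0.329 ± 0.261. NOTCH3, at 0.0216 ± 0.00908, and HEY2, at 0, closed the list. In hypoxia the order on the same scale was NOTCH1 at 22.9 ± 15.6, HES1 at 21.7 ± 11.2, JAG1 at 9.302 ± 3.61, NOTCH2 at 9.298 ± 4.50, DLL4 at 5.64 ± 4.63, HEY1 at 1.85 ± 0.607, JAG2 at 0.767 ± 0.487 and NOTCH4 at 0.364 ± 0.191. HEY2 and NOTCH3 were again last. Most neighbours in these orders could not be separated, because their ranges over the 3 libraries overlapped. The exceptions in normoxia were JAG1 above DLL4, NOTCH4 above NOTCH3 and NOTCH3 above HEY2, and in hypoxia NOTCH4 above HEY2.

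NOTCH1, the receptor best known for vessel sprouting and arterial fate, stood at 5275, 3366 and 1608 scaled reads in normoxia replicates 1, 2 and 3 and at 1962, 7493 and 3268 in hypoxia replicates 1, 2 and 3. Scaled reads are the deposited values, read counts divided by a size factor of each library. The highest library was hypoxia replicate 2 and the lowest normoxia replicate 3, and the groups overlapped. The group means were 3417 ± 1834 and 4241 ± 2891 scaled reads, a ratio of 1.24 that is smaller than the 3.28-fold and 3.82-fold spans between libraries within normoxia and within hypoxia. The log2 difference of hypoxia minus normoxia was 0.25 (95% interval -1.06 to 1.55, adjusted p = 1.00 by limma). It was -0.21 without normoxia replicate 3 and -0.27 without hypoxia replicate 2, so leaving out either of these libraries turned its sign.

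NOTCH2, the second widely expressed receptor, stood at 3939.9, 2905 and 2738 scaled reads in normoxia and at 2125, 4346 and 1903 in hypoxia. The lowest 2 libraries were hypoxia replicates 1 and 3, but hypoxia replicate 2 was the highest of all 6. The log2 difference was -0.27 (95% interval -1.08 to 0.53, adjusted p = 1.00 by limma), negative in all 19 settings that gave a value. Without hypoxia replicate 2 it was -0.64 (adjusted p = 0.917), and without hypoxia replicate 3 it was -0.05. The partial human copies of NOTCH2 share near-identical sequence with it, so the value of NOTCH2 is uncertain to the extent that reads were shared with them. The copy NOTCH2NLA held 15 reads over the 6 libraries, 0.0836% of the 17941 of NOTCH2. That count does not measure reads that match both genes.

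NOTCH3, the receptor typical of mural cells around vessels, was counted at 4, 5 and 2 reads under normoxia and at 0, 2 and 3 under hypoxia. NOTCH4, a receptor largely restricted to endothelium, had 100, 53 and 17 reads in normoxia and 45, 98 and 44 in hypoxia. Neither reached the filter, and both groups overlapped for each of these genes. Fitted without the filter, the log2 difference of NOTCH4 was 0.23 (95% interval -1.10 to 1.57, adjusted p = 1.00 by limma). No difference is given for NOTCH3 at so few reads. Exons of NOTCH4 and GPSM3 share 98 bp on the same strand, 1.01% of the exon length of NOTCH4.

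NOTCH1 therefore made up most of the receptor RNA in 5 of the 6 libraries. Its share of the summed FPKM-scale level of the 4 receptors ran 67.4%, 64.5% and 48.5% over the normoxia libraries and 59.0%, 72.8% and 72.8% over the hypoxia libraries, and NOTCH2 supplied nearly all of the rest. In normoxia replicate 3 NOTCH2 held the larger share, 50.9%. NOTCH4 held 0.513% to 1.49% in any library.

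**Figure D2:**
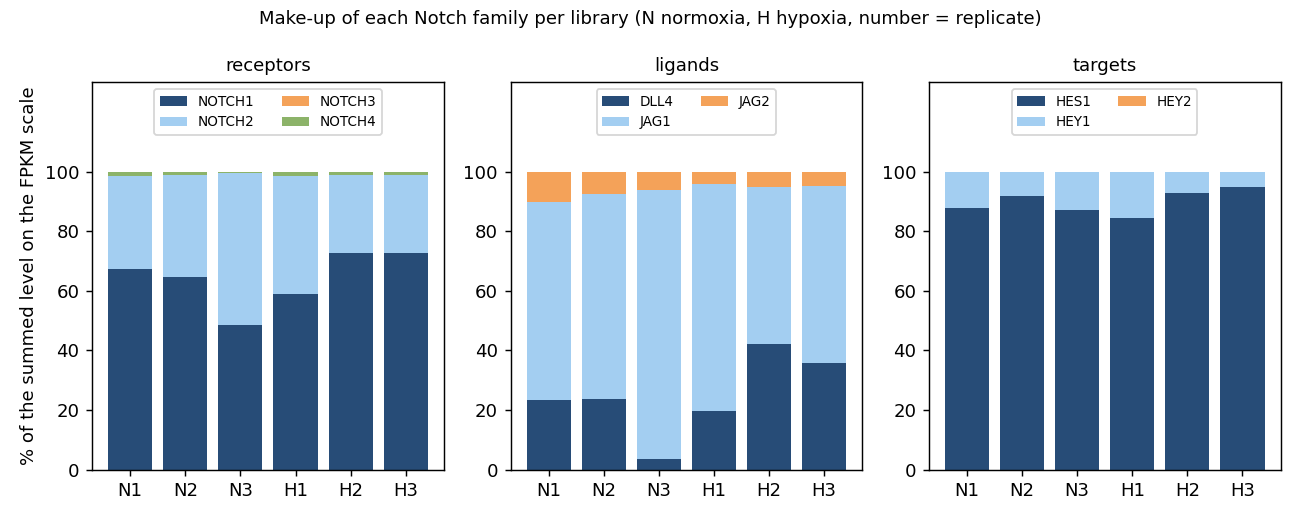
Stacked bars give, for each library (N1 to N3 normoxia, H1 to H3 hypoxia), the percentage of the summed FPKM-scale level of the receptors, ligands and targets that each gene holds. NOTCH1 and NOTCH2 fill the receptor bars, JAG1 is the largest ligand share in every library, and HES1 holds 84.4% to 94.8% of the target level.

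DLL4, the Delta-like ligand through which endothelial cells restrain sprouting by their neighbours, had the widest spread of the tested members. Its normoxia libraries stood at 287, 231 and 28.2 scaled reads, its hypoxia libraries at 168, 922 and 349. Normoxia replicate 3 was far below every other library, at 30 reads, and hypoxia replicate 2 far above, at 889 reads, while hypoxia replicate 1 lay below normoxia replicates 1 and 2. The mean was 2.63-fold higher in hypoxia, 479.6 ± 394 against 182 ± 136 scaled reads, yet libraries of 1 group differed 10.2-fold in normoxia and 5.49-fold in hypoxia. The log2 difference was 1.50 (SE 0.87, 95% interval -0.52 to 3.52, adjusted p = 1.00 by limma). It was positive in all 18 settings that gave a value, from 0.55 to 2.07. The lowest values came without normoxia replicate 3 (0.55) and without hypoxia replicate 2 (0.87), so the size of the difference rests on these libraries.

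JAG1, the Jagged ligand that opposes DLL4 in sprouting vessels, was the most even member in normoxia, at 1593, 1319 and 1343 scaled reads. In hypoxia it stood at 1262, 2234 and 1139, with replicate 2 high and the others below all normoxia libraries. The log2 difference was 0.06 (95% interval -0.63 to 0.75, adjusted p = 1.00 by limma), -0.012 with scaling to the library total and -0.23 without hypoxia replicate 2. A 2-fold change of JAG1 in either direction lies outside this interval, which reflects these libraries alone and is not adjusted for multiple genes. JAG2, its relative, shares 469 bp, 7.33% of its exon length, with exons of AL512356.1 on the same strand, a gene with no values here. JAG2 had 159, 105 and 68 reads in normoxia and 47, 146 and 66 in hypoxia, overlapping groups below the filter. Its log2 difference in the fit without the filter was -0.35 (95% interval -1.53 to 0.83, adjusted p = 1.00 by limma).

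Among the 3 ligands, JAG1 held the largest share of the summed FPKM-scale level in every library, 66.4%, 68.9% and 90.1% under normoxia and 76.0%, 52.5% and 59.6% in hypoxia. The share of DLL4 was 23.4%, 23.6% and 3.70% under normoxia and 19.8%, 42.3% and 35.6% in hypoxia, so 2 of the hypoxia libraries lay above all normoxia libraries and 1 did not. The share of JAG2 was 10.2%, 7.55% and 6.23% under normoxia and 4.27%, 5.17% and 4.77% in hypoxia, and here the groups did not overlap. A share moves with its denominator, which DLL4 and JAG1 dominate, so this is a description with no test.

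**Figure D3:**
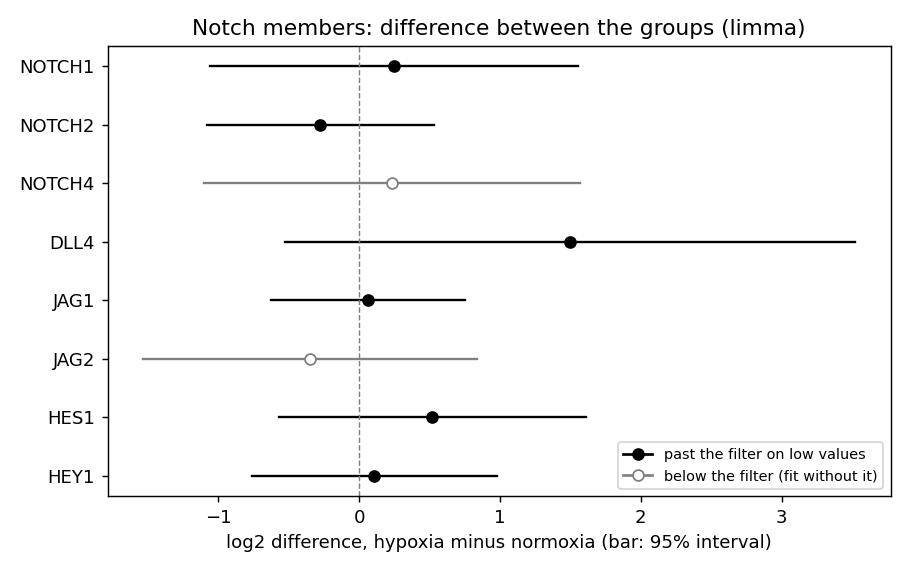
Log2 difference of hypoxia minus normoxia for 8 members with its 95% interval, filled symbols for the 6 tested genes and open symbols for NOTCH4 and JAG2, which come from the fit without the filter. NOTCH3 and HEY2, with at most 5 reads in any library, are not drawn. Every interval includes 0, and that of DLL4 is the widest.

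HES1, a repressor of the basic helix-loop-helix class and a direct Notch target in many tissues, was the main target gene. It stood at 667, 581 and 315 scaled reads in normoxia and at 359, 1181 and 857 in hypoxia. Hypoxia replicates 2 and 3 were above every normoxia library, and hypoxia replicate 1 was below all but normoxia replicate 3. The means were 521 ± 184 and 799 ± 414 scaled reads, 1.53-fold higher in hypoxia, and the log2 difference was 0.52 (SE 0.47, 95% interval -0.57 to 1.61, adjusted p = 1.00 by limma). The difference was positive in all 19 settings, 1.01 without hypoxia replicate 1 (adjusted p = 1.00) and 0.16 without hypoxia replicate 2. HEY1, a related repressor prominent in arterial endothelium, stood at 146, 79.5 and 73.4 scaled reads in normoxia and 104, 143 and 73.2 in hypoxia. Its groups covered nearly the same range, and its log2 difference was 0.11 (95% interval -0.76 to 0.98, adjusted p = 1.00 by limma), with negative values from -0.12 to -0.011 in 3 of the fits that leave out 1 library. HEY2, which is known for arterial specification, had 0 reads in 5 libraries and 2 reads in hypoxia replicate 2. A count of 0 allows up to 3 reads in a library, or 0.161 to 0.174 RPM (reads scaled to library size) here, and this limit covers counting error only. No fold is given for HEY2, since both groups lie under that limit.

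The start regions of HES1, DLL4 and JAG1 are shown because HES1 is the main target and DLL4 and JAG1 are the main ligands whose levels are compared above. They are the 250 bases before the RefSeq start (GRCh38.p14), on the gene's strand, 5′ to 3′: chr3:194135898-194136147 on the plus strand for HES1, chr15:40929090-40929339 on the plus strand for DLL4 and chr20:10674000-10674249 on the minus strand for JAG1. Capitals mark the core RBPJ motif TGGGAA and the core HIF motifs ACGTG and GCGTG on either strand, the last read as CACGC when it lies on the other strand.
HES1 promoter: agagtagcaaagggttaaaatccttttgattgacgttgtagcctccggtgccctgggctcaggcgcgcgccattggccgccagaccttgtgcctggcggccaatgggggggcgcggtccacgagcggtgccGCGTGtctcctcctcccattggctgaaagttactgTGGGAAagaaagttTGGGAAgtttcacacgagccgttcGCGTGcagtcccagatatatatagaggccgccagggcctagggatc
DLL4 promoter: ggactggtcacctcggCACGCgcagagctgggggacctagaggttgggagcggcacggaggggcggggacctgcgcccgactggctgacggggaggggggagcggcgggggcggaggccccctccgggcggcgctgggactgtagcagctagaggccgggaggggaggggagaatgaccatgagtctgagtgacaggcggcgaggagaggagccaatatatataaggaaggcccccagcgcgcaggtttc
JAG1 promoter: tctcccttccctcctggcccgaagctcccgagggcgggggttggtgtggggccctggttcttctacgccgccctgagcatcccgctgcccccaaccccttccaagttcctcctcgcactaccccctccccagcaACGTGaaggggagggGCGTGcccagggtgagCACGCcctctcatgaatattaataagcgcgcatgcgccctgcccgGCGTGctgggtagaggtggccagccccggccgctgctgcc
The HES1 window holds 2 copies of TGGGAA in the same orientation, 8 bases apart, the first beginning 84 bases before the start. Among the 9 members with a sequence in the RefSeq table, 2 (HES1 and HEY2) held TGGGAA, beside 20.8% of all 35116 windows of this length. GCGTG was found in 7 of the 9, beside 32.2% of all windows, and ACGTG in 1, JAG1, beside 18.5%. In HEY2 a GCGTG shares 2 bases with the TGGGAA on the minus strand. These matches describe letters in a window. The windows of the 9 members had a GC content of 58.0% to 81.6%. The shares over all windows were not matched for GC content, so the counts do not show an excess of GCGTG in the members. HEY2, with the RBPJ core, was at or near 0 reads in every library.

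The members shared an order of libraries within each group. Of the 8 members with at least 10 reads in every library, all 8 were highest in replicate 1 among the normoxia libraries and all 8 were highest in replicate 2 among the hypoxia libraries. For all genes tested, those shares were 40.0% and 41.9%, and both held at once for 29.0%. Normoxia replicate 3 was the lowest normoxia library for 7 of the 8, beside 46.2% of all genes tested, and normoxia replicate 2 for 1, beside 19.4%. In hypoxia the lowest library was replicate 1 for 4 members, beside 32.2% of all genes tested, and replicate 3 for the other 4, beside 26.9%. Among 59 tested genes of the Notch pathway outside the members, 27 were highest in both normoxia replicate 1 and hypoxia replicate 2. This order was seen in these values before it was counted, so the counts are a description.

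As a sum, the endothelial markers were also highest in normoxia replicate 1 and in hypoxia replicate 2, and a sum leans on its highest genes. The summed FPKM-scale level of all 10 was 606, 537 and 273 across normoxia replicates 1, 2 and 3 and 316, 816 and 474 across hypoxia replicates 1, 2 and 3. The epithelial markers, of which CDH1 and ELF3 were not analysed here, summed to 357, 354 and 491 in normoxia and 462, 315 and 399 in hypoxia. Only 5 of 9 fibroblast and mural markers and 4 of 6 leukocyte markers enter their sums, and PDGFRA, COL3A1, DCN, LUM, PTPRC and CD3E were not analysed here. Fibroblast and mural markers summed to between 9.68 and 21.6 in normoxia and between 13.6 and 14.9 in hypoxia, and leukocyte markers to between 0.815 and 3.396 and between 1.25 and 3.16. EA.hy926 is a hybrid line, so endothelial and epithelial markers may come from the same cells. In bulk RNA, fewer cells of a kind and less RNA per cell cannot be told apart. The part of the endothelial and epithelial levels in the Notch values was not tested.

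The libraries in which the members were highest within their groups also had the steepest rise of log2 values with GC content. Relative to the mean over the 6 libraries, log2 values rose by 0.33 per 10 percentage points of GC in normoxia replicate 1 and by 0.25 in hypoxia replicate 2, and fell by 0.40 in normoxia replicate 3. Per doubling of gene length, the change ran from -0.096 in hypoxia replicate 1 to 0.065 in hypoxia replicate 2. The transcripts of NOTCH1 and DLL4 have a GC content of 62.9% and 59.7%, those of HES1 and JAG1 49.9% and 49.6%. NOTCH2 and HEY1, which shared the order of libraries too, have 49.4% and 47.3%. After each library was corrected for GC content and gene length, the span between libraries of NOTCH1 on the log2 scale went from 1.70 to 0.93 in normoxia and from 1.92 to 1.07 in hypoxia. The span of DLL4 went from 3.01 to 2.39 in normoxia and from 2.40 to 1.99 in hypoxia, and that of HES1 from 1.07 to 0.88 and from 1.71 to 1.97. The span of JAG1 went up in normoxia, from 0.27 to 0.43, and down in hypoxia, from 0.96 to 0.63. The median span of all genes tested went from 0.69 to 0.50 and from 0.64 to 0.48. The shared order of libraries changed in part with the correction. All 6 tested members stayed highest in hypoxia replicate 2, beside 37.9% of all genes tested. In normoxia 5 of the 6 were highest in replicate 1, beside 26.9%, and JAG1 was highest in replicate 3. Normoxia replicate 3 was the lowest for 3 of the 6, beside 38.8%, down from 5 before the correction, and normoxia replicate 2 for the other 3 (NOTCH2, JAG1 and HEY1), beside 28.0%. With this correction the log2 difference was 1.56 for DLL4 (95% interval -0.10 to 3.22), 0.37 for NOTCH1 (-0.39 to 1.12) and 0.44 for HES1 (-0.65 to 1.54), each with an adjusted p of 0.997 by limma.

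**Figure D4:**
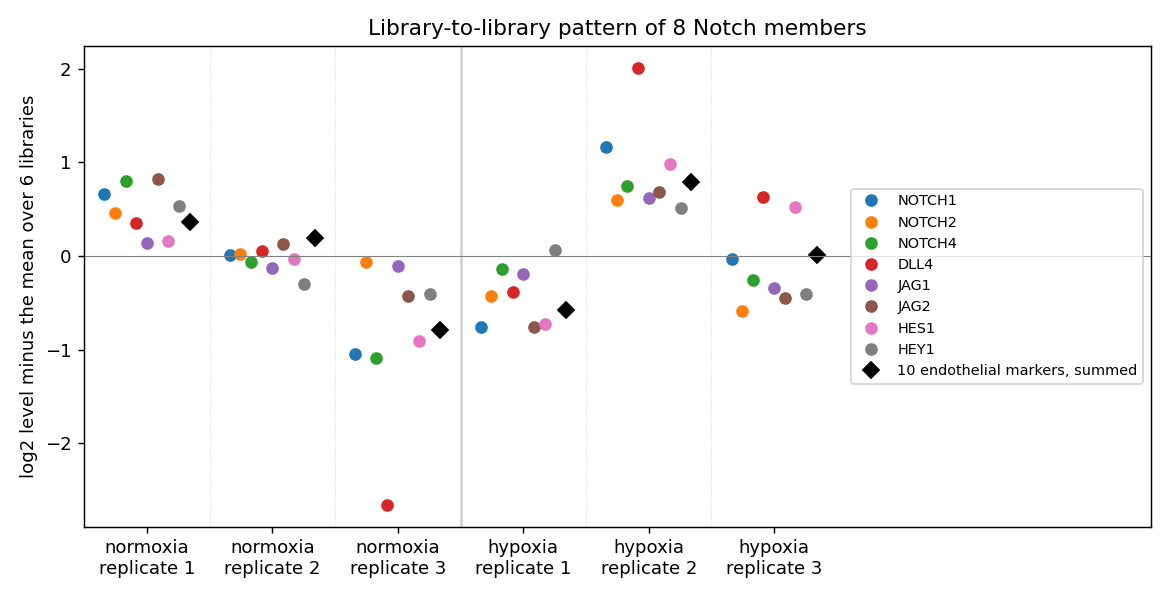
Log2 FPKM-scale level of 8 members in each library, each gene centred on its mean over the 6 libraries, with the summed level of 10 endothelial markers as black diamonds. All 8 members are highest in replicate 1 within normoxia and in replicate 2 within hypoxia, and the lowest point is DLL4 in normoxia replicate 3.

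The rest of the pathway was covered by 8 lists holding 71 genes, of which 59 passed the filter. None of these 59 changed by limma, edgeR or DESeq2, 1 of them (RBPJ) had an unadjusted limma p below 0.05, and the background shares are those given above. Their median log2 difference was 0.03, with 33 positive and 26 negative. In 4 of the 59 all hypoxia libraries were higher than all normoxia libraries, beside 4.77% of all genes tested, and in 0 they were all lower, beside 2.72%.

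RBPJ, the DNA-binding protein through which all 4 receptors act, had the largest difference of these genes. It stood at 183, 205 and 324 scaled reads in normoxia and at 345, 397 and 518 in hypoxia, so the groups did not overlap but lay close together at their edges. Its mean was 1.77-fold higher in hypoxia, and the log2 difference was 0.80 (SE 0.32, 95% interval 0.06 to 1.54, adjusted p = 1.00 by limma). The adjusted p ranged from 0.486 to 1.00 over 17 alternatives, and the difference from 0.55 to 1.03. In the nuclear activation complex, 8 of 9 genes were tested, 0 passed and the median was -0.23. MAML3, a Mastermind coactivator, had a log2 difference of 0.37 (adjusted p = 1.00 by limma), which was -0.058 without normoxia replicate 3.

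Of 13 genes of the nuclear repressor complex, all tested, 0 passed and the median log2 difference was 0.09. CTBP2, a corepressor, stood at 784, 839 and 754 against 949, 1252 and 921 scaled reads, groups that did not overlap, with a log2 difference of 0.37 (adjusted p = 1.00 by limma). Exons of CTBP2 share 3416 bp, 31.2% of their length, with ZRANB1 on the opposite strand, under a strand setting not given in the sources used here. Reads of this pair of genes may therefore be mixed.

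All 9 genes of receptor cleavage were tested, 0 passed and the median log2 difference was 0.04. ADAM17, a membrane protease that can cut Notch, stood at 388, 488 and 479 against 501, 623 and 530.4 scaled reads, without overlap, and differed by 0.28 on the log2 scale (limma: 95% interval -0.31 to 0.87, adjusted p = 1.00). Exons of ADAM17 share 1323 bp, 12.3% of their length, with IAH1 on the opposite strand. IAH1 had 216, 243 and 194 reads in normoxia and 383, 298 and 404 in hypoxia.

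Of 11 genes that place sugars on the receptors 10 were tested, 0 passed and the median log2 difference was -0.08. The fringe enzyme LFNG, which tunes the response of Notch to Delta-like and Jagged ligands, had a log2 difference of -0.38, and EOGT, which adds GlcNAc to extracellular domains, one of -0.31 (both adjusted p = 1.00 by limma). LFNG ran from 144 to 460 scaled reads in normoxia and from 148 to 336 in hypoxia. Of 15 ubiquitin ligases and endocytosis genes 11 were tested, 0 passed and the median was -0.14. The Deltex genes DTX4 and DTX2 had differences of -0.28 and -0.22 (adjusted p = 1.00 by limma), and DTX4 turned to 0.13 without hypoxia replicate 1.

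Other targets and ligands gave small differences. Of 7 further HES, HEY and feedback genes 4 were tested and 0 passed, with a median log2 difference of 0.12. NRARP, a target that feeds back to limit Notch signalling, stood at 85.8, 62.5 and 58.3 scaled reads in normoxia and 40.4, 62.2 and 52.3 in hypoxia, a log2 difference of -0.39 (adjusted p = 1.00 by limma). HES7, known from the segmentation clock, had one of 0.29 (adjusted p = 1.00). Of 6 further ligands and secreted modulators 3 were tested and 0 passed. DLL1, a second Delta-like ligand, stood at 79.4, 72.9 and 23.5 scaled reads in normoxia and 28.0, 94.4 and 47.5 in hypoxia, and the log2 difference was -0.04 (adjusted p = 1.00 by limma). DNER, a non-canonical ligand, had one of 0.05 (adjusted p = 1.00). HIF1AN, the oxygen-dependent hydroxylase that modifies both HIF and Notch receptors, differed by 0.12 on the log2 scale (limma: 95% interval -0.47 to 0.71, adjusted p = 1.00).

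**Figure D5:**
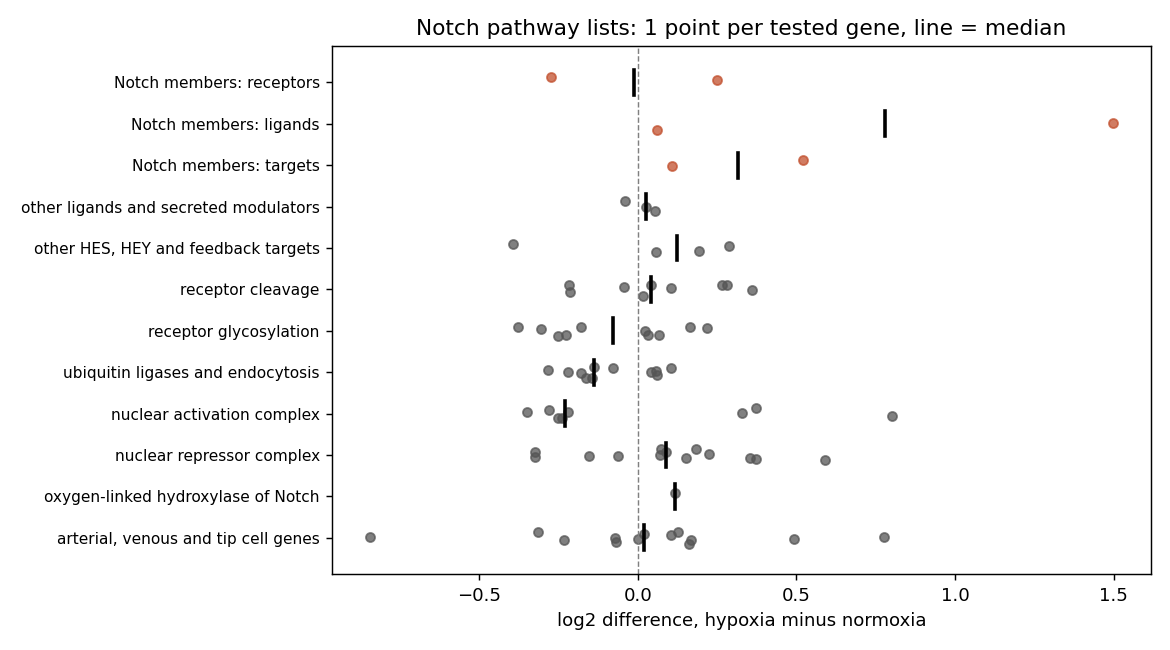
Log2 difference of hypoxia minus normoxia for each tested gene of the Notch lists (1 point per gene, members in red, others in grey, black line at the list median). Points lie on both sides of 0 in 9 of the 12 lists, with DLL4 at 1.50 and RBPJ at 0.80 farthest to the right in their lists.

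Of 19 arterial, venous and tip cell genes, which lie downstream of or beside Notch in vessels, 13 were tested and 0 passed, with a median log2 difference of 0.02. APLN, a peptide ligand made by tip cells, stood at 4456, 4855 and 3312 scaled reads in normoxia and 7243, 9061 and 5478 in hypoxia, without overlap, a log2 difference of 0.77 (SE 0.26, 95% interval 0.18 to 1.37, adjusted p = 1.00 by limma). KDR, the main VEGF receptor, which Notch signalling is known to restrain, differed by -0.85 on the log2 scale (limma: 95% interval -2.09 to 0.40, adjusted p = 1.00), with overlapping groups. Without hypoxia replicate 1 the difference of KDR was -0.40, and without normoxia replicate 3 and hypoxia replicate 2 in turn it was -1.29 and -1.28.

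The genes whose pattern over the 6 libraries lay closest to that of DLL4 were CCDC107, ARHGEF37 and ENSG00000261512. Likeness was the root mean square difference between log2 levels centred on each gene's mean, and it was 0.48, 0.49 and 0.50, beside a spread of DLL4 around its own mean of 1.40. Each of the 3 was lowest in normoxia replicate 3, at 16.0, 12.2 and 10.3 scaled reads, and highest in hypoxia replicate 2, at 163, 187 and 107. DLL4 has the same lowest and highest libraries, and the 3 genes were picked for likeness to it, so this follows from the choice. The genes named as closest to HES1 were WBP1P2 and TMC6, at 0.12 and 0.19, beside a spread of HES1 of 0.66. WBP1P2 is a pseudogene with at most 14.5 scaled reads.

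The members lie on separate stretches of GENCODE 29 (GRCh38), whose positions were looked up by Ensembl identifier, since the deposited table holds none. NOTCH1 (ENSG00000148400) is at chr9:136494433-136545786 and NOTCH2 (ENSG00000134250) at chr1:119911553-120069626, both on the minus strand. DLL4 (ENSG00000128917) is at chr15:40929333-40939073 on the plus strand, JAG1 (ENSG00000101384) at chr20:10637684-10673999 on the minus strand and HES1 (ENSG00000114315) at chr3:194136145-194138732 on the plus strand. HEY1 (ENSG00000164683) is at chr8:79764010-79767863 on the minus strand. NOTCH3 (ENSG00000074181), at chr19:15159038-15200981, NOTCH4 (ENSG00000204301), at chr6:32194843-32224067, and JAG2 (ENSG00000184916), at chr14:105140981-105168824, are on the minus strand, and HEY2 (ENSG00000135547), at chr6:125747664-125761269, is on the plus strand.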

How the data were processed

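Polyadenylated RNA was measured in 6 libraries. The submitters' processing notes list CASAVA, HISAT2 2.0.5 and featureCounts 1.5.0-p3, and also the mouse build mm9, although the identifiers are human. Their annotation and strand setting, like the human build, were not given in the sources used here. Although the table is named for FPKM, the signal deposited by the authors is read counts divided by 1 size factor per library. In each library 100% of values were whole multiples of 1 step (tolerance 0.05 of a step), which gave back the reads.

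Values were divided by exon length (GENCODE 29) and the mean library total, filtered at 1 in at least 3 libraries, and log2(value + 0.1) was fitted with limma 3.58.1 (R 4.3.3; group only, trend and robust variance, two-sided, Benjamini-Hochberg adjustment over 10237 genes, threshold 0.05). Fold changes on this scale understate those of low genes. edgeR 4.0.16 and DESeq2 1.42.0 were run on the recovered reads. Because the labels do not call the replicates separate cultures, p-values reflect the spread of these samples alone, and that spread may be technical.

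Members and lists were chosen with earlier results of these data known. All 10 members are named. From each other list, genes past the test are named, or else the 2 with the largest differences, and for DLL4 and HES1 the 3 genes most alike. Some genes this rule picks are not reported here. Marker genes, overlapping neighbours and BNIP3 were picked out after their values were seen. Symbols were matched for 21988 of 22153 identifiers. Promoter sequences are from RefSeq, which matched 9 of the 10 members.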

Additional observations from a re-analysis of the deposited data

How the results depend on the processing

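Whether any member was called did not depend on the setting: 0 of the members tested passed in all 18 alternatives, and the number of members at a mean level of 1 or more in both groups was 6 under each of the 8 alternatives that change the level. The count of all genes called did depend on it. Beside the 10 genes of the report (10 higher, 0 lower), it was 4 with no filter (3 higher, 1 lower), 50 by DESeq2 (45 and 5), 31 after the correction for GC content and gene length (30 and 1), and 1 (without hypoxia replicate 3) to 20 (without normoxia replicate 3) when 1 library was left out (1 to 19 higher, 0 to 1 lower). With a pseudocount of 1, and with limma without trend and robust variance, 1 gene was called lower. Without 1 library, the log2 difference ran from -0.27 to 0.69 for NOTCH1, -0.23 to 0.25 for JAG1, -0.12 to 0.40 for HEY1, -0.10 to 0.21 for DNER, -0.54 to 0.33 for DLL1, -0.82 to 0.0014 for LFNG, -0.58 to 0.0067 for EOGT, -0.77 to 0.13 for DTX4, -0.058 to 0.64 for MAML3 and -0.052 to 0.21 for HIF1AN, each changing sign. With scaling to the library total, JAG1 was at -0.012 and DNER at -0.020. The cause was not tested. Among genes that kept their sign, KDR ran from -1.29 to -0.40, DTX2 from -0.46 to -0.017, HES7 from 0.12 to 0.52, NRARP from -0.53 to -0.23, ADAM17 from 0.18 to 0.34 and CTBP2 from 0.23 to 0.45 without 1 library. NOTCH4 and JAG2 had a value only without the filter.

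The labels do not say whether the replicate numbers in the titles pair the samples. Deviations from the group means correlated at -0.40, 0.24 and 0.22 across genes for numbers 1, 2 and 3. Normoxia replicate 1 correlated best with hypoxia replicate 2 (0.61), and normoxia replicate 3 with hypoxia replicate 1 (0.50). Normoxia replicate 1 and hypoxia replicate 2 also had the steepest log2 rise with GC content (0.33 and 0.25 per 10 percentage points). The part of GC content in the correlations was not tested, and they cannot decide whether the samples were paired. With the replicate number as a block 19 genes were called (19 higher), and 23 (23 higher) with the block and the GC content and gene length correction.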
